A study of Petromyzon marinus with 4 samples.

Results

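DNA repair genes were followed through the germ-like and somatic cells of sea lamprey (Petromyzon marinus) gonads. The 47 genes were picked by name from the 21967 features, with earlier results of these data known. They are Fanconi anaemia genes (FANC), RAD genes, BRCA1 and BRCA2, the XRCC, MSH, MLH, PMS and ERCC families, ATM, ATR, BLM and PALB2. Single-cell RNA had been measured in 4 libraries of wild-caught, wildtype animals of unknown age: 1 of a female transformer, 1 of a male transformer, and 2 of larvae whose gonads had not yet differentiated. A transformer is a lamprey that has metamorphosed and whose sex is determined. The number of animals behind each library is not given in the sources used here, so each sex rests on 1 library and p-values over stages measure only the spread between these libraries.

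DNA repair works through a handful of routes, and some of their parts are shared. The Fanconi anaemia proteins and homologous recombination deal with crosslinked and broken chromosomes, end joining rejoins broken ends directly, nucleotide excision cuts out bulky damage, and mismatch repair corrects copying errors. Germ cells use several of these proteins for a second purpose, since meiosis makes and repairs breaks on purpose. Members of the mismatch repair families are known from mouse and yeast work to act there, and BRCA2 from mouse work. No member sequence was at hand, so the genes are given by name.

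A barcode was taken as a cell with at least 1875 counts and 250 genes, which left 28977 cells of the female, 38208 of the male, 18647 of larva 1 and 19515 of larva 2 after likely doublets were removed. Clusters were formed without the 47 genes and were named germ-like from fixed germ cell markers, of which 11 to 19 of the 32 found were raised in each. Germ-like cells numbered 502 in the female, 27194 in the male, 1191 in larva 1 and 1240 in larva 2, against 28469, 9398, 17456 and 18275 somatic cells in the same libraries. The germ marker PIWIL1, a piRNA-binding protein, stood at 30.2 CPM (counts scaled to the depth of the cells summed) in the female germ-like cluster, at 287 to 471 CPM in the male ones and at 45.4 to 147 CPM in the larval ones. Other germ markers also differed between these clusters. SYCP3 was at 2.43 CPM in the female, 135 to 300 CPM in the male and 40.5 to 241 CPM in the larval ones. ZAR1L went the other way between the sexes, at 129 CPM in the female, 10.9 to 22.4 CPM in the male and 34.1 to 114 CPM in the larval ones. Summed counts over a class ranged between 14462140 (female germ-like cells) and 230865787 (male germ-like cells). Called cells of different libraries shared at most 12 barcodes.

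Repair genes as a group took a larger share of the RNA counts in germ-like cells than in somatic cells of every library. The 47 genes together made up 0.0797% of the counts in female germ-like cells, 0.0862% in male, 0.0920% in larva 1 and 0.0914% in larva 2 germ-like cells. In somatic cells the shares were 0.0323% in the female, 0.0298% in the male, 0.0488% in larva 1 and 0.0479% in larva 2. The classes did not overlap, and the germ-like shares varied less among libraries than the somatic ones. All 47 genes were detected in both classes of every library, and all passed the filter on low counts in every test.

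Of the 47 genes, 12 were higher in germ-like than in somatic cells and 0 were lower in the edgeR quasi-likelihood test with the library as a block (Benjamini-Hochberg adjusted p under 0.05 over 18260 genes). Among all genes tested 8.23% were higher and 8.27% were lower. The median log2 fold change was 0.76 over the 47 genes and -0.03 over all genes, and 36 of the 47 were above 0. At an unadjusted p under 0.05 there were 24 repair genes, or 51.1%, of which XRCC4 was lower, against 34.4% of all genes. DESeq2 called 30, or 63.8%, again with XRCC4 lower, against 35.6% of all genes. Ratios of plain CPM showed the same side in all 4 libraries for most genes: 32, or 68.1%, were higher in germ-like cells in every library and 1, XRCC4, in no library, against 31.0% and 13.3% of all genes. The median over all genes of that plain ratio was 0.01 (log2) in the female, 0.53 in the male, 0.15 in larva 1 and 0.21 in larva 2, and 35, 38, 35 and 34 of the repair genes stood above it. The test rested on the larval pair: without larva 1 it called 2 of the 47 genes and without larva 2 it called 3. BRCA1 and XRCC2 were among them both times. Calls over all genes also changed when a library was left out, and their range is given in the last section. Without a share over all genes for each run, these counts do not set repair genes apart from other genes.

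**Figure D1:**
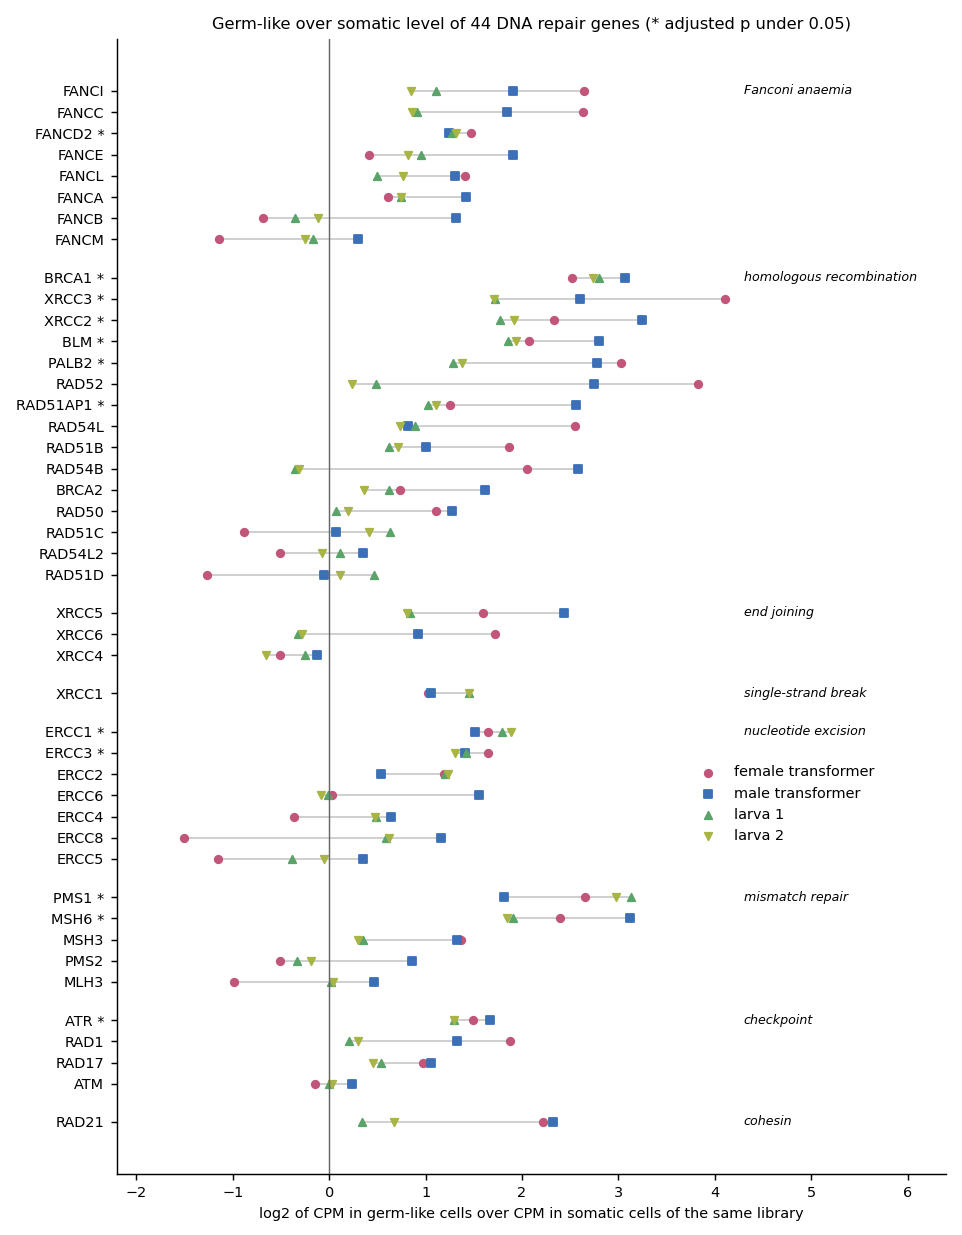
Each row is 1 of the 44 repair genes described and each symbol 1 library; the horizontal axis is the log2 ratio of CPM in germ-like cells to CPM in somatic cells of that library, grouped by role, and stars mark the 12 genes past the edgeR threshold. For 29 of the 44 genes all 4 symbols lie right of 0, and the spread between transformer symbols is often wider than that between the larvae.

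Homologous recombination held 6 of the 12. Its 16 genes had a median log2 fold change of 0.99, and 13 were above 0. BRCA1, the tumour suppressor that steers broken ends into recombination, had 5.19 CPM in female, 13.2 CPM in male, 19.1 CPM in larva 1 and 18.1 CPM in larva 2 germ-like cells, against 0.909, 1.56, 2.74 and 2.73 CPM in somatic cells of the same libraries. Every germ-like value lay above every somatic value (log2 fold change 2.51 ± 0.21 (SE), adjusted p = 0.00407, edgeR). In cells thinned to 1875 counts, BRCA1 was seen in 0.807% of female, 2.32% of male, 4.39% of larva 1 and 4.09% of larva 2 germ-like cells, against 0.163%, 0.305%, 0.504% and 0.504% of somatic cells. Before thinning the shares were 12.0%, 10.1%, 36.1% and 39.4% of germ-like cells against 0.559%, 0.734%, 1.66% and 1.76% of somatic cells, and germ-like cells were deeper in every library, with medians of 8138 to 21984 counts against 3922 to 5550.

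XRCC2 and XRCC3, which act in homologous recombination in vertebrates, were both higher. XRCC2 had 3.66, 5.81, 7.67 and 7.997 CPM in germ-like cells of the female, the male, larva 1 and larva 2, against 0.733, 0.602, 2.24 and 2.12 CPM in somatic cells (log2 fold change 2.03 ± 0.28, adjusted p = 0.00997, edgeR). XRCC3 had 12.2, 8.97, 17.5 and 17.95 CPM against 0.705, 1.47, 5.32 and 5.48 CPM in the same order (2.22 ± 0.50, adjusted p = 0.0379). For both, all germ-like libraries lay above all somatic libraries, and the transformer somatic cells were the lowest. The fold for XRCC3 was 4.11 on the log2 scale in the female and 1.72 and 1.71 in the larvae.

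BLM, the helicase that takes recombination intermediates apart, had 16.3 CPM in female and 32.8 CPM in male germ-like cells and 13.8 and 14.2 CPM in larval ones, against 3.90, 4.70, 3.80 and 3.72 CPM in somatic cells (1.90 ± 0.23, adjusted p = 0.00733, edgeR). PALB2, the partner that ties BRCA1 to BRCA2, had 47.8 CPM in female, 39.7 CPM in male, 20.9 CPM in larva 1 and 23.8 CPM in larva 2 germ-like cells, against 5.86, 5.80, 8.54 and 9.16 CPM in somatic cells (1.84 ± 0.40, adjusted p = 0.0356). Its 2 transformer germ-like libraries were the highest and its 2 transformer somatic libraries the lowest. RAD51AP1, an accessory protein of strand exchange, had 8.92 CPM in female, 25.1 CPM in male and 9.84 and 10.9 CPM in larval germ-like cells, against 3.76, 4.26, 4.83 and 5.07 CPM in somatic cells (1.21 ± 0.29, adjusted p = 0.0453); the male stood apart.

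Several members of the same group, which was set by gene name, did not pass. RAD52, a strand-annealing protein, had 4.84, 2.92, 3.20 and 3.09 CPM in germ-like cells against 0.342, 0.424, 2.30 and 2.63 CPM in somatic cells (1.47 ± 0.71, adjusted p = 0.208), with its gap in the transformers. BRCA2, RAD50, RAD51B, RAD54B and RAD54L had log2 fold changes between 0.39 and 0.96 and adjusted p between 0.153 and 0.454. RAD51C, RAD51D and RAD54L2 were between -0.30 and -0.16, and RAD51C and RAD51D stayed under 1 CPM in every class of every library.

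Mismatch repair gave 2 of its 7 genes, with a group median of 0.71. PMS1, a MutL homologue, had 5.32 CPM in female, 2.24 CPM in male, 10.7 CPM in larva 1 and 11.7 CPM in larva 2 germ-like cells, against 0.848, 0.624, 1.22 and 1.49 CPM in somatic cells (log2 fold change 2.41 ± 0.34, adjusted p = 0.0114, edgeR). The larvae were highest, and no germ-like library overlapped a somatic one. MSH6, which recognises mispaired bases, had 16.8, 28.0, 14.6 and 14.4 CPM in germ-like cells of the female, the male, larva 1 and larva 2, against 3.19, 3.21, 3.89 and 4.02 CPM in somatic cells (2.05 ± 0.27, adjusted p = 0.00904). MSH3, MLH3 and PMS2 were between -0.37 and 0.57 and did not pass.

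Nucleotide excision repair also gave 2 of 7. ERCC1, which with ERCC4 forms a nuclease that cuts beside the damage, had 20.5 CPM in female, 18.3 CPM in male and 40.1 and 40.1 CPM in larval germ-like cells, against 6.58, 6.42, 11.6 and 10.8 CPM in somatic cells (log2 fold change 1.44 ± 0.24, adjusted p = 0.0178, edgeR). ERCC3, a helicase of the transcription factor TFIIH, had 31.8, 18.3, 30.2 and 29.2 CPM in germ-like cells against 10.1, 6.89, 11.3 and 11.8 CPM in somatic cells (1.18 ± 0.23, adjusted p = 0.0276). For both genes the ratio was much alike in the 4 libraries. ERCC4 had 4.77, 6.47, 6.74 and 6.62 CPM in germ-like cells against 6.17, 4.15, 4.81 and 4.76 CPM in somatic cells, and the classes overlapped (0.05 ± 0.24, adjusted p = 0.913). ERCC2, ERCC5, ERCC6 and ERCC8 ranged between -0.57 and 0.78.

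The Fanconi group, set by the FANC name, had 1 of 8, FANCD2, the protein that is ubiquitinated when the pathway is switched on. It had 8.16, 4.65, 11.6 and 10.8 CPM in germ-like cells of the female, the male, larva 1 and larva 2, against 2.95, 1.96, 4.82 and 4.36 CPM in somatic cells (log2 fold change 1.06 ± 0.22, adjusted p = 0.0298, edgeR). Among checkpoint genes ATR, the kinase that answers stalled forks, was the 1 of 4: 9.40, 14.9, 21.1 and 18.98 CPM in germ-like cells against 3.35, 4.68, 8.56 and 7.75 CPM in somatic cells (1.17 ± 0.21, adjusted p = 0.021). Its sister kinase ATM, which answers double-strand breaks, was at 3.73, 4.15, 6.07 and 5.73 CPM against 4.17, 3.50, 6.07 and 5.60 CPM, so the classes overlapped (-0.24 ± 0.19, adjusted p = 0.434). The 3 end-joining genes, XRCC1 (the scaffold of single-strand break repair) and RAD21 (a cohesin subunit) did not pass. XRCC1 was higher in germ-like cells in 4 of 4 libraries (0.98, adjusted p = 0.0545, edgeR).

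**Figure D2:**
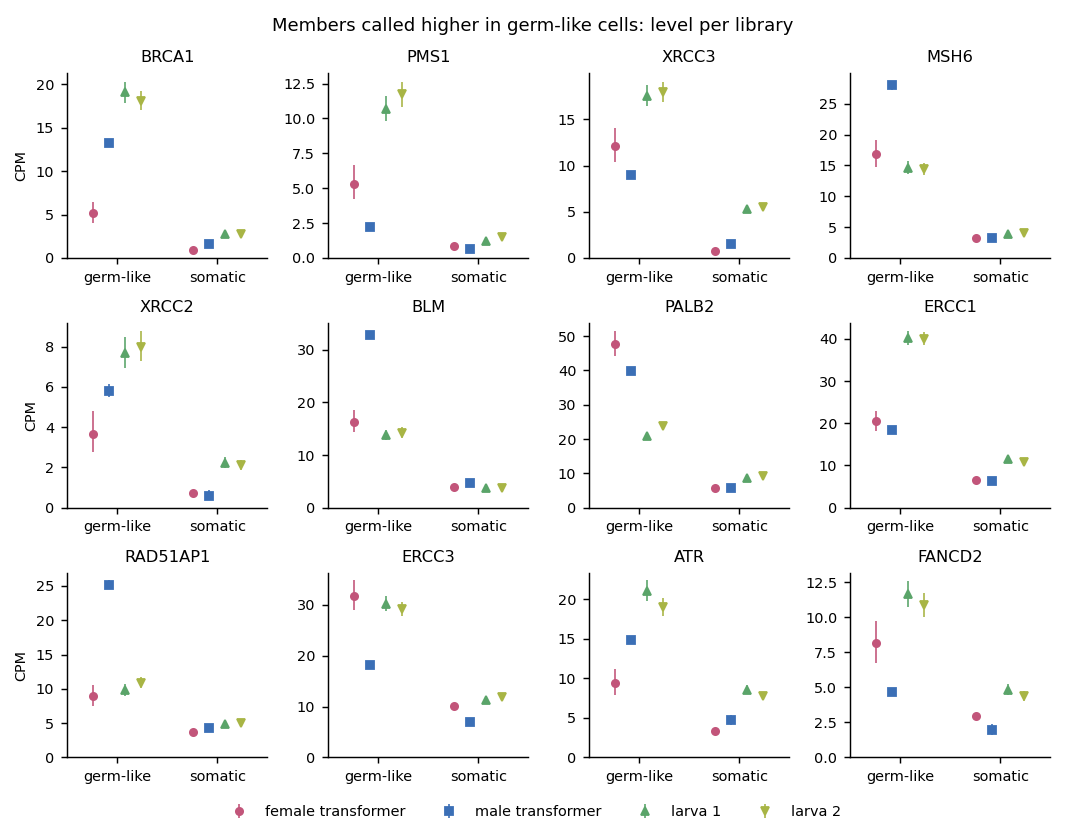
The 12 repair genes called higher in germ-like cells, with CPM on the vertical axis from 0, germ-like cells on the left and somatic cells on the right; each symbol is 1 library and bars are 95% exact Poisson intervals, which cover counting error only. Germ-like values lie above the somatic value of the same library in every panel, and the male library is highest in germ-like cells for MSH6, BLM and RAD51AP1.

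XRCC5, XRCC1, RAD51B and RAD1 were among the genes with the highest mean levels in germ-like cells; these are CPM of 3′ end counts, not divided by gene length. XRCC5, the larger Ku subunit that caps broken ends, had 41.6 CPM in female, 170 CPM in male, 103 CPM in larva 1 and 104 CPM in larva 2 germ-like cells, against 13.7, 31.3, 57.6 and 59.2 CPM in somatic cells. XRCC1 had 43.6, 54.9, 106 and 105 CPM in germ-like cells against 21.4, 26.4, 38.9 and 38.6 CPM in somatic cells. RAD51B, a further recombination gene, had 57.3, 37.1, 76.5 and 80.7 CPM against 15.7, 18.5, 49.9 and 49.2 CPM, and RAD1, part of the checkpoint clamp, had 44.7, 34.2, 32.3 and 33.7 CPM against 12.2, 13.6, 28.1 and 27.5 CPM. All 4 were higher in germ-like cells of each library, with smaller gaps in larvae for XRCC5, RAD51B and RAD1.

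Background RNA was measured in the barcodes ranked 40000 to 80000 by counts. In the male 40223 barcodes passed the minimum before doublets were removed, so the first ranks of its window were still at cell depth; in the other libraries all lay below it. There the 47 genes summed to 409 CPM in the female, 815 CPM in the male, 527 CPM in larva 1 and 534 CPM in larva 2, so the male background stood near the 862 CPM of male germ-like cells and far above the 298 CPM of male somatic cells. BRCA1, for example, was at 12.8 CPM in the male background and MSH6 at 26.1 CPM. How much of the somatic counts came from such RNA was not tested.

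Other repair genes, which the naming rule leaves out, were read beside the 47. Of 79 found from a fixed list, 10 were higher and 1 was lower in germ-like cells (median log2 fold change 0.53). Among all genes 8.23% were higher and 8.27% lower. MSH5, among the 10, was also a marker that named the germ-like clusters, and it is counted again with the meiotic genes. The higher ones included EXO1, an exonuclease of mismatch repair and end resection (2.48, adjusted p = 0.0387, edgeR), PARP2, a break sensor (2.26, adjusted p = 0.017), USP1, which removes ubiquitin from FANCD2 (2.06, adjusted p = 0.0115), and RPA2, a single-strand binding subunit (1.86, adjusted p = 0.0107). The lower one was FAN1, a Fanconi-associated nuclease (-1.73, adjusted p = 0.00859). Of 17 meiotic genes 8 were higher (median 1.51), among them DMC1, a strand-exchange protein of meiosis (2.58, adjusted p = 0.00477). DMC1, SYCP3, TERB2, MAJIN and TEX11, like MSH5, were also markers that named the germ-like clusters. Their rise was therefore favoured by how the class was set and is not a separate result. The other genes called, CNTD1 and SPATA22, were not markers. Of 22 proliferation genes 1 was higher (median 1.10).

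Between the stages, germ-like cells gave no repair gene past the threshold. In transformer against larval germ-like cells edgeR called 0 of 47 genes, against 0% of 18036 genes tested. DESeq2 also called 0 repair genes, against 4.69% of all genes. Before adjustment 4 repair genes, or 8.51%, were under 0.05, against 2710 of all 18036 genes tested, a larger share. In data simulated with the same dispersion for all genes and libraries, this comparison recovered 0.5% of genes changed 4-fold. Little could be detected under that setting, while the spread in the real libraries was uneven. The median size of the plain log2 ratio over the 47 genes was 0.74 between female and male germ-like cells and 0.08 between the larval libraries. RAD54B and PALB2 were among the genes with the lowest p. RAD54B, a DNA motor of recombination, had 8.57 CPM in the female and 11.3 CPM in the male, against 4.35 CPM in larva 1 and 4.27 CPM in larva 2 (log2 fold change 1.61 ± 0.31, adjusted p = 0.278, edgeR). PALB2 was at 47.8 and 39.7 CPM in transformers against 20.9 and 23.8 CPM in larvae (1.38 ± 0.35, adjusted p = 0.287, edgeR). In each the transformer libraries lay above both larval ones, as they did for 12.4% of all genes.

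Plain CPM and the fitted values differed in this comparison, by amounts that varied from gene to gene. In log2 CPM averaged over libraries, the median gene was 0.46 lower in transformer than in larval germ-like cells, and 0.56 lower in somatic cells. The edgeR fits scale by TMM (edgeR's trimmed mean of M values) and estimate a mean per group. In them the median gene was at 0.05 and 0.02. The fitted fold changes are therefore roughly relative to the median gene.

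In somatic cells 3 of 47 repair genes differed between transformers and larvae, a share of 6.38%, against 4.55% of 18519 genes tested. The 1 higher was FANCM, the motor protein that anchors the Fanconi complex, against 2% of all genes, and the 2 lower were RAD52 and XRCC2, against 2.55%. FANCM had 11.4 CPM in the female and 9.99 CPM in the male, against 6.24 CPM in larva 1 and 6.04 CPM in larva 2 (log2 fold change 1.35 ± 0.17, adjusted p = 0.0438, edgeR). RAD52 had 0.342 and 0.424 CPM in transformers against 2.30 and 2.63 CPM in larvae (-2.18 ± 0.30, adjusted p = 0.0475), and XRCC2 had 0.733 and 0.602 CPM against 2.24 and 2.12 CPM (-1.16 ± 0.16, adjusted p = 0.0487). The stages did not overlap for any of the 3, which is common here: both transformers lay below both larvae for 59.9% of all genes, and above them for 10.3%. None of these calls held when only cells with at least 3750 counts were kept (adjusted p 0.0598 to 0.0864) or without either larval library (adjusted p 0.478 to 0.656). In the male background FANCM was at 17.3 CPM, RAD52 at 3.75 CPM and XRCC2 at 3.70 CPM. Male somatic RAD52 rested on 19 counts and male somatic XRCC2 on 27.

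Cell division genes also differed between the stages. The 22 proliferation genes summed to 155 CPM in female and 181 CPM in male somatic cells. In larva 1 they summed to 669 CPM and in larva 2 to 684 CPM. Of the 22, 6 were called lower in transformers, or 27.3%, against 2.55% of all genes. The median log2 fold change of the 22 was -0.98. Larval RAD52 was concentrated in 2 clusters whose proliferation genes summed to 2533 and 3278 CPM in larva 1, and 2539 and 3142 CPM in larva 2. These clusters held 7.60% of the somatic cells and 62.9% of the RAD52 counts in larva 1, and 7.92% and 67.0% in larva 2. Outside these 2 clusters RAD52 was at 0.949 CPM in larva 1 and 0.966 CPM in larva 2. All somatic cells of the female and the male, with no cluster left out, had 0.342 and 0.424 CPM. XRCC2 outside the 2 larval clusters was at 2.21 and 1.99 CPM, close to its whole-class level. The larval cells outside them still included cluster 10, whose proliferation genes summed to 1253 CPM in larva 1 and 1224 CPM in larva 2. The part of dividing cells in these differences was not tested.

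Whether the gap between germ-like and somatic cells changed with stage was asked in 1 model with an interaction term. EdgeR called 0 of 47 repair genes and 0% of 18717 genes, with 7 repair genes, or 14.9%, at an unadjusted p under 0.05, against 11.6% of all genes. DESeq2 called 2, or 4.26%, against 2.77% of all genes: RAD52 (2.91, adjusted p = 0.0225) and RAD54B (2.58, adjusted p = 0.001), whose edgeR values were 2.85 ± 0.59 (adjusted p = 0.355) and 2.52 ± 0.31 (adjusted p = 0.294). For RAD52 the germ-like over somatic log2 ratio was 3.82 in the female and 2.75 in the male, against 0.48 in larva 1 and 0.23 in larva 2. For RAD54B it was 2.05 and 2.58 in transformers against -0.35 and -0.31 in larvae.

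Female and male germ-like cells were compared with 1 library per sex, and no test was made. Relative to the all-gene median, the log2 ratio had a median size of 0.83 over the repair genes and 0.85 over all genes, so repair genes differed about as much as other genes. The median log2 ratio of female over male was -0.39 over the 47 genes and -0.09 over 18436 genes. Relative to that all-gene median, 5 repair genes were over 2-fold higher in the female, against 20.9% of all genes, and 10 were over 2-fold lower, against 23.1%. The larval pair gives a scale: its largest log2 ratio over the 47 genes in germ-like cells was 0.36, either way.

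Among the genes higher in the female, RAD54L, a DNA motor of recombination, had 32.3 CPM in female and 9.15 CPM in male cells (1.82). PMS1 had 5.32 CPM in female and 2.24 CPM in male cells (1.26), and RAD21 had 11.5 and 5.28 CPM in female and male cells (1.13). FANCI, the partner of FANCD2, had 5.53 CPM in female and 3.06 CPM in male cells (0.86). In larval germ-like cells RAD54L stood between the sexes, at 15.6 and 13.4 CPM, while PMS1 was above both, at 10.7 and 11.7 CPM.

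ERCC8, which recruits repair to stalled transcription, was the lowest ratio: 4.08 CPM in female (59 counts, interval 3.11 to 5.26) and 36.2 CPM in male germ-like cells (35.4 to 37.0), a log2 ratio of -3.14. The larvae, at 36.6 and 34.6 CPM, were at the male level. MLH3, a MutL homologue of crossing over, had 3.53 CPM in female and 16.99 CPM in male cells (-2.25), and XRCC5 had 41.6 and 170 CPM in female and male cells (-2.03). FANCB, a Fanconi core subunit, had 2.90 and 9.33 CPM (-1.67), and RAD51AP1 had 8.92 and 25.1 CPM (-1.49). RAD51D, at -1.61, rested on 2 counts in the female, 0.138 CPM (interval 0.0167 to 0.50), against 0.524 CPM in the male (0.435 to 0.626). Female germ-like ERCC8, at 4.08 CPM, also lay below the 11.7 CPM of female somatic cells and the 11.0 CPM of the female background.

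**Figure D3:**
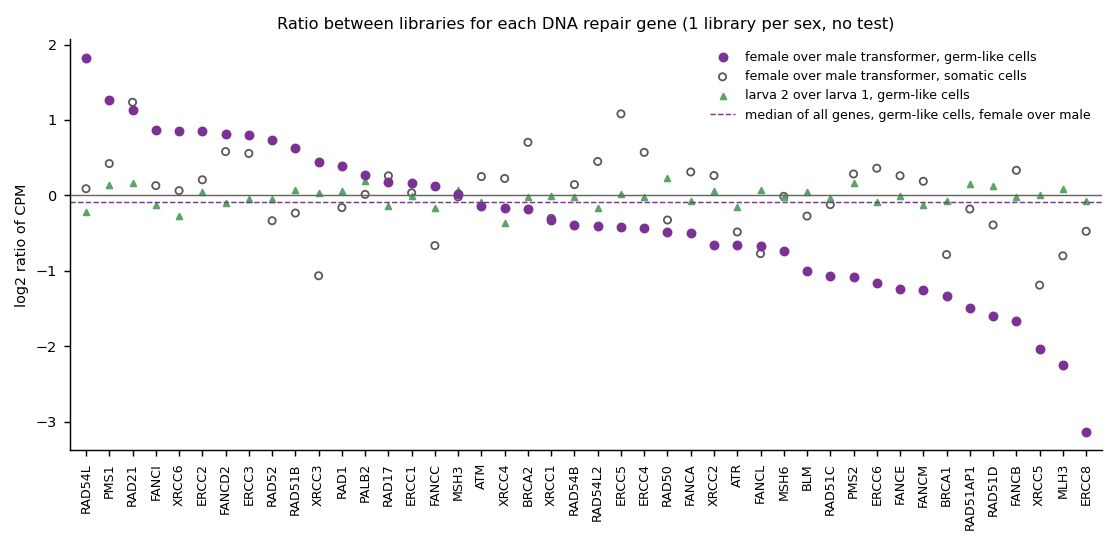
The 44 repair genes described along the horizontal axis, ordered by the log2 ratio of CPM between the female and the male transformer in germ-like cells (filled points); open circles are the same ratio in somatic cells, triangles are larva 2 over larva 1 in germ-like cells, and the dashed line is the median of all genes in germ-like cells. RAD54L is at 1.82 and ERCC8 at -3.14, while the larval pair stays within 0.36 of 0.

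Somatic cells differed less between the sexes. The median log2 ratio was 0.09 over the repair genes and 0.33 over 18001 genes; relative to that all-gene value, 1 repair gene was over 2-fold higher in the female, against 11% of all genes, and 5 were over 2-fold lower, against 8.49%. By the plain log2 ratio, RAD21 had 2.49 CPM in female and 1.05 CPM in male somatic cells (1.24). ERCC5, a nuclease of excision repair, had 4.08 and 1.92 CPM (1.08). Relative to the all-gene median RAD21 was 0.91 and ERCC5 0.75 higher, so neither was over 2-fold. BRCA2, a mediator of recombination, had 2.92 and 1.78 CPM (0.70). FANCD2 (0.58) and ERCC4 (0.57) followed. The lowest ratios were those of XRCC5, at 13.7 CPM in female and 31.3 CPM in male somatic cells (-1.19), XRCC3, at 0.705 and 1.47 CPM (-1.07), MLH3 (-0.80), BRCA1 (-0.79), FANCL, the ubiquitin ligase of the Fanconi pathway (-0.77), and FANCC (-0.67). In the male background XRCC5 was at 124 CPM and XRCC3 at 6.34 CPM, against 16.7 and 1.59 CPM in the female background. The part of this difference in the somatic ratios was not tested. The sexes also differed in their somatic clusters. A renal tubule-like cluster held 17.7% of the female cells in somatic clusters of 50 or more cells, and no such male cluster was listed. RAD21 was at 3.72 CPM in it and 1.84 CPM in the other female clusters, XRCC5 at 8.69 and 16.4 CPM, and XRCC3 at 0.756 and 0.681 CPM. How far the mix of cells sets the somatic ratios was not tested.

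Germ-like cells were not uniform within a library. Female germ-like cells formed 1 cluster of 495 cells, of which 0.0369% of counts in the median cell were mitochondrial, against 0.488% to 4.06% in the median cell of the other germ-like clusters. The larvae shared 2 clusters: cluster 19, with 664 cells in larva 1 and 686 in larva 2, and cluster 22, with 525 and 552. The male had 3 large clusters (9837, 9771 and 5659 cells), a cluster of 1466 cells (cluster 18) and 1 of 438 cells with few counts per cell (cluster 36). Repair genes made up 0.0794% of counts in the female cluster, 0.106% in male cluster 18, 0.128% in male cluster 36, 0.0808% to 0.0855% in the large male clusters, 0.0878% and 0.0866% in larval cluster 19, and 0.111% and 0.112% in larval cluster 22. Since clusters were cut from the expression of other genes of the same cells, these differences are a description and carry no test.

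Male cluster 18 had the most RNA of cell division genes among the male germ-like clusters. The 22 proliferation genes summed to 2408 CPM there, against 659 to 721 CPM in the large male clusters. Most of that sum came from CCNB2, at 973 CPM, and PCNA, at 779 CPM. In the large clusters these were at 29.1 to 33.6 CPM and 321 to 359 CPM. Relative to the median gene, 7 repair genes were over 2-fold higher in cluster 18 than in the large clusters, against 3.86% of 18227 genes, and 0 were over 2-fold lower, against 2.75%. XRCC3 had 27.3 CPM in cluster 18 and 7.58 CPM in the large clusters (log2 ratio 1.85), and RAD52 had 6.88 and 2.54 CPM (1.44). RAD21, at 10.9 and 4.80 CPM (1.18), FANCI, at 6.14 and 2.80 CPM (1.14), FANCC, at 16.8 and 8.57 CPM (0.97), and RAD54B, at 20.3 and 10.5 CPM (0.96), were also among the 7. The proliferation genes of the female cluster summed to 4844 CPM, of which CCNB2 alone, a mitotic and meiotic cyclin, gave 4049 CPM.

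Larval cluster 19 was set against larval cluster 22 in each larval library. Relative to the median gene, 23 repair genes were lower and 17 higher in cluster 19 in both libraries. The matching share over all genes was not computed, and both libraries were cut into the same joint clusters. This agreement is therefore not a result about repair genes. Over 2-fold lower in both were 8, against 10.2% of 17952 genes, and over 2-fold higher was 1, against 8.47%. RAD51AP1 had 5.49 and 5.95 CPM in cluster 19 of larva 1 and larva 2, against 30.3 and 32.5 CPM in cluster 22 (log2 ratios -2.46 and -2.45). PALB2 had 14.0 and 14.96 CPM against 53.1 and 61.9 CPM (-1.92 and -2.05), and MSH3 had 10.4 and 10.7 CPM against 28.7 and 29.4 CPM (-1.47 and -1.45). ERCC6, BLM, MLH3 and XRCC6 were also among the 8. PMS1 was the 1 higher, at 11.8 and 13.3 CPM in cluster 19 against 5.41 and 4.79 CPM in cluster 22. Cluster 22 held more of the proliferation genes (1221 and 1405 CPM, against 693 and 726 CPM in cluster 19) and of the meiotic genes (488 and 490 CPM, against 140 and 143 CPM).

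**Figure D4:**
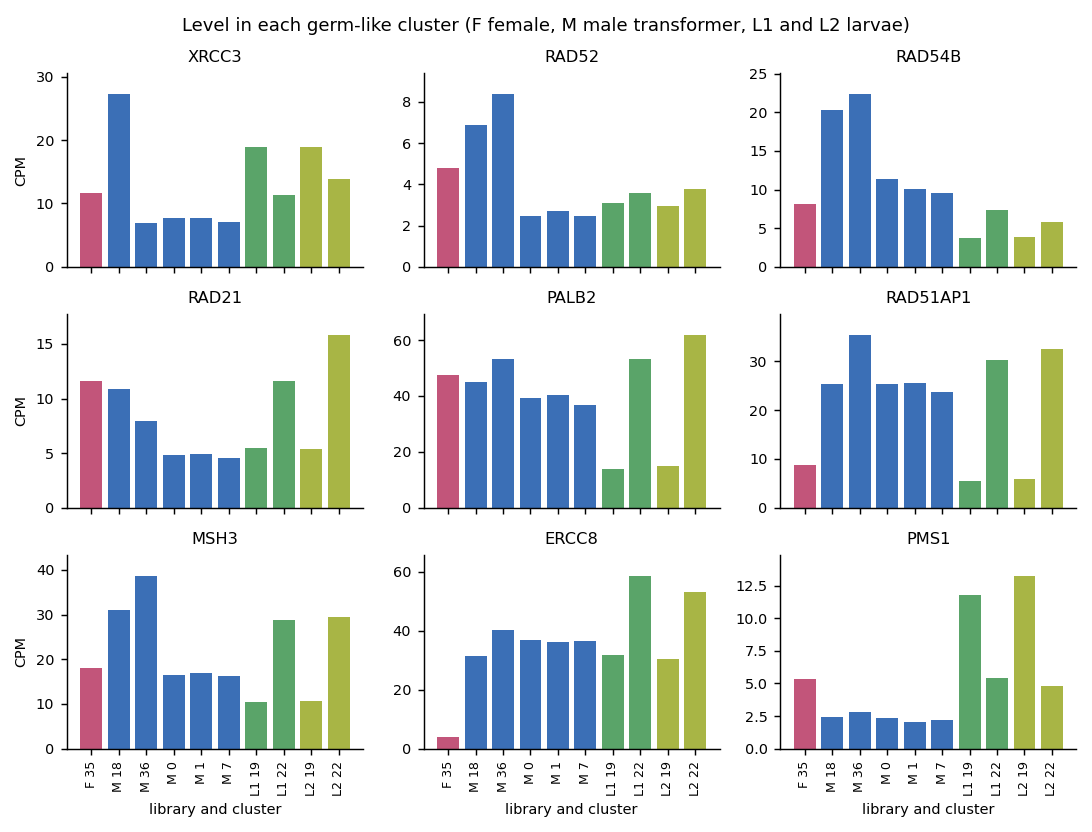
CPM of 9 repair genes, chosen after their values were seen, in each germ-like cluster of 50 or more cells, by library (F female, M male transformer, L1 and L2 larvae) and cluster number; bars start at 0 and are sums over cells with no replicate. XRCC3 is highest in male cluster 18, PALB2, RAD51AP1 and MSH3 are low in larval cluster 19 of both libraries, and ERCC8 is low in the female cluster only among the clusters shown.

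The ratio between female and male germ-like cells and that between larval clusters 19 and 22 come from separate libraries. Across the 47 repair genes the Spearman correlation of the first with the mean of the second was 0.39, and across 17952 genes it was 0.37, where genes are not independent replicates. Relative to the all-gene medians, 28 of the 47, or 59.6%, lay on the same side in both ratios, against 62.4% of all genes. PMS1 was higher in both (female and cluster 19), and RAD51AP1, MLH3, BLM, ERCC6 and XRCC5 were lower in both. PALB2, RAD21 and XRCC6 went opposite ways, higher in the female and lower in cluster 19.

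Among somatic cells repair genes were unevenly spread over clusters. The summed level of the 47 genes ranged over 86.2 to 435 CPM in the 11 female clusters, 78.4 to 433 CPM in the 9 male ones, 235 to 1241 CPM in the 14 of larva 1 and 213 to 1206 CPM in the 14 of larva 2. Both larval maxima were cluster 21, the one with the most proliferation RNA, followed by cluster 16. There XRCC5 had 252 and 239 CPM in larva 1 and larva 2, and RAD52 had 29.5 and 30.4 CPM. BRCA1 reached 11.5 and 13.5 CPM in cluster 21, nearer to the larval germ-like level than to the somatic one.

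**Figure D5:**
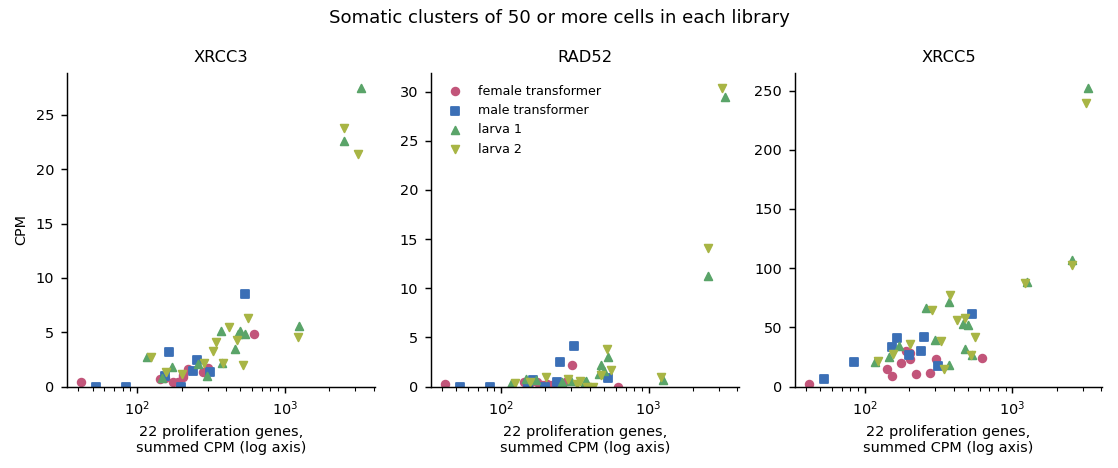
Each symbol is 1 somatic cluster in 1 library; the horizontal log axis is the summed CPM of 22 proliferation genes and the vertical axis the CPM of XRCC3, RAD52 or XRCC5. The larval cluster with the most proliferation RNA is highest for RAD52 and XRCC5, at 29.5 and 30.4 CPM of RAD52 in larva 1 and larva 2.

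Some members share their locus with another gene. Of the 47, 44 had an entry in the RefSeq genes of UKy_Petmar_22M1.pri1.0, and 17 of these overlapped another gene, among them FANCI with POLG, ERCC3 with MLX, XRCC2 with NIT2, ATR with ESM1, RAD54L with ALKBH7, RAD21 with RAB22A, FANCE with SPC24 and ERCC2 with PACS1. PALB2, ERCC1, RAD51B, MLH3, RAD51D, FANCB, XRCC6, RAD50 and ERCC4 were the others. Whether strand was used in counting is not given in the sources used here, so reads of these pairs may not have been told apart.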

How the data were processed

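Single-cell RNA was measured in 4 libraries made with a PIPseq 3′ kit from dissociated, live-sorted gonads, per the labels' protocols. Each deposited matrix holds whole-number counts per gene and barcode, with most barcodes below the cell minimum; aligner, counter, build, annotation and whether a count is a molecule are not given in the sources used here. A set of 24 features without a gene name (2.54% to 4.91% of counts in cells) was left out. The count minimum was 5 times the largest background, the median count of barcodes ranked 40000 to 80000; cells had at most 20% mitochondrial counts. Scrublet's own threshold marked 0% of cells, so the cells scoring highest (from the 95th percentile up) were removed (991 to 2015 a library). Clustering used scanpy 1.11.5 and Leiden (resolution 1, 2000 variable genes, 30 principal components, 41 clusters). A cluster with at least 3 raised germ markers was germ-like; 2 of these (1187 and 435 cells, nearly all male) were left out as mixed because 5 or more of their 10 leading genes were among the 50 leading genes of a large somatic cluster of the same library, a rule set after the clusters were seen. An earlier form of it also marked the female germ-like cluster, which holds 495 of the 502 female germ-like cells, and the change kept that cluster. Without the female library 11 repair genes were called in the main comparison, a count given without its share over all genes.

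Counts were summed per library and class and tested with edgeR 4.0.16 (R 4.3.3; TMM, filterByExpr, robust quasi-likelihood), two-sided, with Benjamini-Hochberg adjustment over all genes. Germ-like and somatic cells of 1 library were paired by the library block because they come from the same library. DESeq2 1.42.0 was an alternative. CPM exclude the unnamed features; plain log2 ratios used an added 0.5 count. The tests were also run on simulated data, made with the common dispersion of the main fits. Of 200 genes changed 4-fold they recovered 74% (germ against somatic), 0.5% (stage, germ-like), 49.5% (stage, somatic) and 0% (interaction). Intervals cover counting error only. Named genes were those past the threshold (up to 10 each way), or the 3 with the lowest p, the 6 highest and 6 lowest female over male ratios and the 5 highest germ-like levels; the other 2 called genes were added. Members and lists were chosen with earlier results of these data known. Results for 3 of the 47 genes are not reported here one by one; they stay in the counts and sums.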

Additional observations from a re-analysis of the deposited data

Results flagged for a closer look

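For 7 genes the germ-like over somatic ratio took opposite signs in different groups. By stage, 4 genes had both transformer libraries on one side of 0 and both larval libraries on the other, as did 9.76% of all tested genes. RAD54B had log2 ratios of 2.05 in the female and 2.58 in the male against -0.35 and -0.31 in larva 1 and larva 2 (interaction 2.52, adjusted p = 0.294, edgeR). XRCC6, a Ku subunit, had 1.72 and 0.93 in transformers against -0.32 and -0.29 in larvae (1.498, adjusted p = 0.423). ERCC6, a remodeller of stalled transcription, had 0.03 and 1.55 against -0.02 and -0.08 (0.71, adjusted p = 0.648). RAD51D, with 2 counts in female germ-like cells, had -1.27 and -0.05 against 0.46 and 0.12 (-0.89, adjusted p = 0.533). None of the 4 interactions passed the threshold.

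By sex, 3 genes had ratios of opposite sign and at least 0.5 in size in the female and the male, as did 14.5% of all tested genes; with 1 library each these differences were not tested. ERCC8 had -1.502 in the female and 1.16 in the male, a difference of -2.66, with 0.59 and 0.62 in the larvae. FANCB had -0.69 in the female and 1.31 in the male, a difference of -2.0. PMS2, a MutL subunit, had -0.51 in the female and 0.86 in the male, a difference of -1.37.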

How the results depend on the processing

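Germ against somatic cells called 12 repair genes and 3013 genes in all. The DESeq2 Wald test called 30 and 7197, and leaving out 1 library each gave 2 to 12 and 732 to 4330. Without the replicate block on the library 14 and 3199 were called. DESeq2 size factors, no low-count filter, a doubled minimum, Leiden resolution 2 and mixed clusters as germ-like gave 11 to 14 repair genes. These last counts are given without their shares over all genes. Transformer against larval germ-like cells called 0 of all genes, and 639 (0 repair genes) with DESeq2; leave-one-out gave 0 to 37 repair genes and 0 to 12016 genes. In somatic cells (3 and 842) DESeq2 called 11 and 3120, the doubled minimum 0 and 223, and leave-one-out 0 to 33 and 0 to 10496. For the interaction (0 and 0) DESeq2 called 2 and 450, and leave-one-out 0 to 32 and 0 to 9934. The high counts arose on leaving out a transformer library; the lone transformer is then assumed to vary like the larvae, which alone give the spread. No paired analysis was possible for the stage comparisons because transformer and larval libraries come from different animals. Female over male, the repair genes' median minus that of all genes was -0.30 in germ-like cells, and -0.26 with the doubled minimum, -0.27 with mixed clusters, -0.23 as a mean over cells and -0.24 with a minimum of 100 counts; in somatic cells it was -0.24, and -0.20 at resolution 2. The cause of these shifts was not tested. No named gene changed sign under any alternative run. Depth limits RAD51C and RAD51D in female germ-like cells, with 6 and 2 counts. RAD52 and XRCC2 in male somatic cells, with 19 and 27 counts, are also limited by depth.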
